A study of Mus musculus with 9 samples.

Results

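The cytosolic ribosomal protein genes are described here across mouse small intestinal crypts with and without PCGF6. They were taken as every row whose symbol has the form Rps or Rpl plus a number, with an optional a, l or x, together with Rpsa, Rplp0, Rplp1 and Rplp2. Rows with a pseudogene symbol and Rpl10l were left out. This gave 82 of the 55341 rows: 32 genes of the small subunit, 47 of the large subunit and 3 of the stalk. GENCODE lists 79 of them as protein coding. It lists Rpl32l and Rpl6l as processed pseudogenes and Rps4l as a transcribed processed pseudogene, which goes against the label, so these 3 rows are described apart where they lead a result.

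The series measured RNA of isolated crypts from male C57BL/6 mice aged 8 to 12 weeks, to find what loss of PCGF6, a component of a variant Polycomb complex, changes in adult intestinal epithelium. The 4 groups were AhCre Pcgf6 KO (n = 2), AhCre Pcgf6 WT (n = 2), Villin CreERT2 Pcgf6 KO (n = 2) and Villin CreERT2 Pcgf6 WT (n = 3). AhCre mice, WT and KO, had received beta-naphthoflavone (BNF), which switches on a Cre under a promoter that responds to the aryl hydrocarbon receptor; Villin mice, WT and KO, had received tamoxifen by their titles and treatment labels, which switches on a Cre made under the Villin promoter of the intestinal epithelium. Their description lines name BNF instead, so the agent is uncertain in the Villin groups. The deletion is conditional, so cells that the Cre did not reach keep the gene. The labels give both 15 and 7 days after induction, and the interval is therefore uncertain. Whether the WT mice carried a Cre is not stated, and no label ties replicates to different animals. A p-value here therefore covers only the spread among these libraries, which may be technical.

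Ribosomal proteins form the small and large subunits of the ribosome together with ribosomal RNA. They are made in near-equal numbers, and their short, abundant mRNAs are produced and translated together. Many of these mRNAs start with a C followed by a run of pyrimidines, the terminal oligopyrimidine (TOP) tract, through which the mTORC1 pathway and LARP1 control their translation and stability. In the crypt, dividing cells make ribosomes for growth, and synthesis declines as cells move up and differentiate.

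By the rule given below, such a tract was found near the annotated start of 29 of the 60 members with a RefSeq promoter sequence. The first transcribed bases of 7 members with or without a match are shown. Each line holds 30 bases, 10 before the annotated RefSeq start and 20 from it, 5′ to 3′ on the gene's strand of GRCm38.p6, with the tract in capitals. Rps6 and Rpl38 are textbook members, Rplp2 stands for the stalk, Rps2 and Rpl13a had the lowest log2 fold changes of the protein-coding members in the Villin comparison, and Rpsa and Rpl10a, which passed the test there, have no tract by the rule used.
Rps6: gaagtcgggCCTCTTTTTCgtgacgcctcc
Rpl38: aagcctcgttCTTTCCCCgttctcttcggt
Rplp2: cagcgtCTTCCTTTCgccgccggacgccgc
Rps2: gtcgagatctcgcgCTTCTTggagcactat
Rpl13a: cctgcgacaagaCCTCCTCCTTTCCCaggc
Rpsa: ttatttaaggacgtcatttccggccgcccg
Rpl10a: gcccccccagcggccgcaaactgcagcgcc

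These windows lie at chr4:86857348-86857377 for Rps6 (minus strand), chr11:114668570-114668599 for Rpl38 (plus), chr7:141447641-141447670 for Rplp2 (plus), chr17:24720053-24720082 for Rps2 (plus), chr7:45128726-45128755 for Rpl13a (minus), chr9:120127756-120127785 for Rpsa (plus) and chr17:28328461-28328490 for Rpl10a (plus, the first of its annotated starts). Of the 82 members, 60 matched the RefSeq promoter table. A C within 5 bases of the annotated start followed by at least 4 pyrimidines, the rule for the tract, was found in 48.3% of these 60, against 21.2% of all 27025 genes in the table. The rule depends on where the start is annotated and misses a tract that begins more than 5 bases from it. A member without a match is therefore not shown to lack a tract. In the 300 bases from 250 before to 50 after the start, read on both strands, the GABPA motif CCGGAAG was found in 41.7% of the members against 9.93% of all genes. The YY1 motif AAGATGG was found in 15.0% against 7.28%, the SP1 motif GGGCGG in 58.3% against 38.2%, the E2F motif TTCCCGC in 8.33% against 5.29%, the E-box CACGTG in 6 of the 60 against 8.09%, and TATAAA in 11.7% against 15.7%. A TTCCCGC or CCGGAAG match can overlap other motifs, and a match describes letters only.

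Total counts were 9263993 to 12377921 in the AhCre libraries and 6455098 to 8339149 in the Villin libraries, and counts fell on 33791 to 38835 rows in AhCre but on 22058 to 29750 in Villin. Pcgf6, a check of the labels, stood at 7.20 and 5.90 CPM in AhCre KO against 14.1 and 10.1 CPM in AhCre WT, and at 3.07 and 2.47 CPM in Villin KO against 10.8, 12.7 and 9.44 CPM in Villin WT. CPM here are counts divided by the library total after scaling by edgeR's TMM factor, on the usual CPM scale. All 10 pan-epithelial markers were detected, with a summed level of 7440 to 19600 CPM, beside 37.6 to 269 CPM for 20 stromal markers. Villin WT 2 stands apart from the other Villin WT libraries. The 2 Villin KO libraries differ from each other, and which of them is unusual cannot be told. The members' median in Villin KO against Villin WT is also given with Villin KO 1 or Villin WT 2 left out. So are most log2 fold changes printed for single genes there, but not the medians of other lists. The members' median in that comparison was -0.49 without Villin KO 1, and with Villin KO 2 left out instead it was -1.43.

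Across the set, the level per length of transcript was widely spread. Over the 76 members whose symbols do not end in l, the mean over the 9 libraries had a median of 442 CPM per kilobase and an interquartile range of 260 to 585. Among the highest were Rpl41 (1460), whose protein is among the smallest known, Rpl32 (1260), Rps14 (1250) and Rps27l (1130). The lowest were Rpl3l (0.129), a striated-muscle paralogue, Rpl39l (0.273), a testis-enriched paralogue, Rpl6l (3.33), Rpl24 (15.9) and Rpl32l (18.1). Rpl3l had 17 counts and Rpl39l 12 counts in all 9 libraries together, and both were left out of the tests as too low, which left 80 members tested.

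Many members have near-identical copies elsewhere in the genome, so reads can be lost or split. In 51 of 82 members, at least 50% of the 50-base stretches of the transcript also occurred in transcripts of other genes, and exons of 37 overlapped another gene, often a small nucleolar RNA in an intron. Rpl24 shared 81.7% of its stretches with 10 other genes, and Rpl23a, another low member at 28.6 CPM per kilobase, shared 85.7% with 29. Rps3 shared 3.0%. The level per length and the shared percentage had a Spearman correlation of -0.18 over 76 genes that share all libraries. Levels of single members are therefore uncertain, and comparisons of a member with itself between libraries are less so.

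The share of all counts that fell on the 82 members stood higher in KO with AhCre and lower in KO with Villin. It was 2.61% and 3.25% in AhCre KO against 2.26% and 2.37% in AhCre WT, a ratio of means of 1.27. It was 1.01% and 2.07% in Villin KO against 3.66%, 2.45% and 3.75% in Villin WT, a ratio of 0.468. Within each driver the KO and WT libraries did not overlap, and the difference between the drivers was not tested for the share. Fewer cells of a type and less RNA per cell cannot be told apart in bulk samples.

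**Figure D1:**
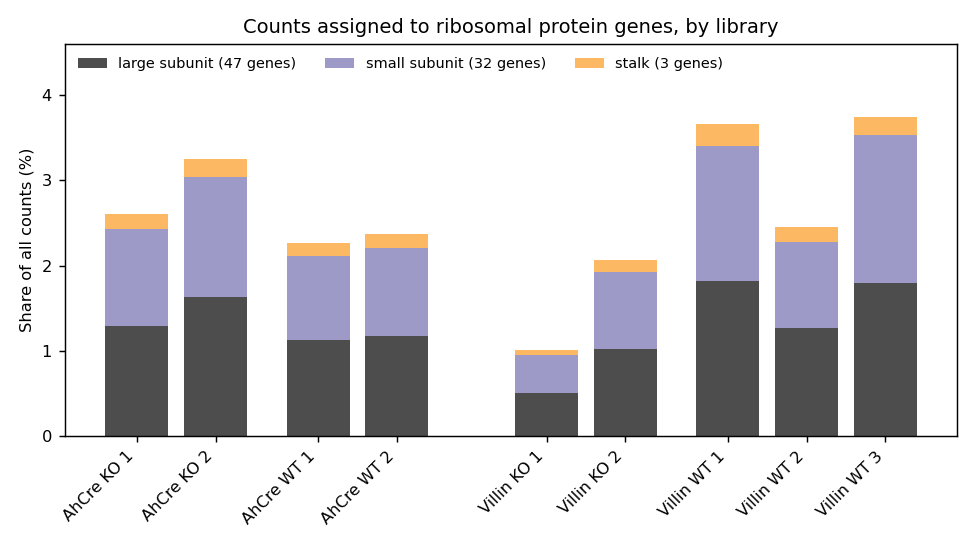
Share of all counts (%, vertical axis) that fell on ribosomal protein genes in each of the 9 libraries, stacked by large subunit, small subunit and stalk. Villin KO 1 is the lowest bar at 1.01% and Villin WT 3 the highest at 3.75%, and the small subunit takes the largest part relative to the other layers in Villin WT 3 and the smallest in Villin WT 2.

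The 3 classes showed the same order of groups. The small subunit took 1.14% and 1.41% of counts in AhCre KO against 0.977% and 1.03% in AhCre WT, and 0.439% and 0.905% in Villin KO against 1.58%, 1.01% and 1.73% in Villin WT. The large subunit took 1.29% and 1.63% in AhCre KO against 1.13% and 1.17% in AhCre WT, and 0.507% and 1.02% in Villin KO against 1.82%, 1.27% and 1.80% in Villin WT. The stalk took 0.176% and 0.207% in AhCre KO against 0.156% and 0.172% in AhCre WT, and 0.0634% and 0.143% in Villin KO against 0.261%, 0.177% and 0.212% in Villin WT. Each class repeats the pattern of the whole set: within a driver, KO libraries never overlapped WT libraries. Counts of the small subunit divided by those of the large subunit and stalk lay between 0.761 and 0.778 in 7 libraries, at 0.697 in Villin WT 2 and at 0.860 in Villin WT 3. Relative to the median member of the same library, a member's log2 CPM had an SD over the 9 libraries of 0.204 in the median member, from 0.077 to 1.11.

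After scaling by TMM, which sets the levels of most genes equal between libraries, the summed level of the 82 members was 21499 and 26123 CPM in AhCre KO against 18052 and 18833 CPM in AhCre WT. It was 14788 and 26597 CPM in Villin KO against 42974, 22050 and 46622 CPM in Villin WT. On this scale the Villin groups overlapped, since Villin KO 2 lay above Villin WT 2, while the AhCre groups still did not.

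**Figure D2:**
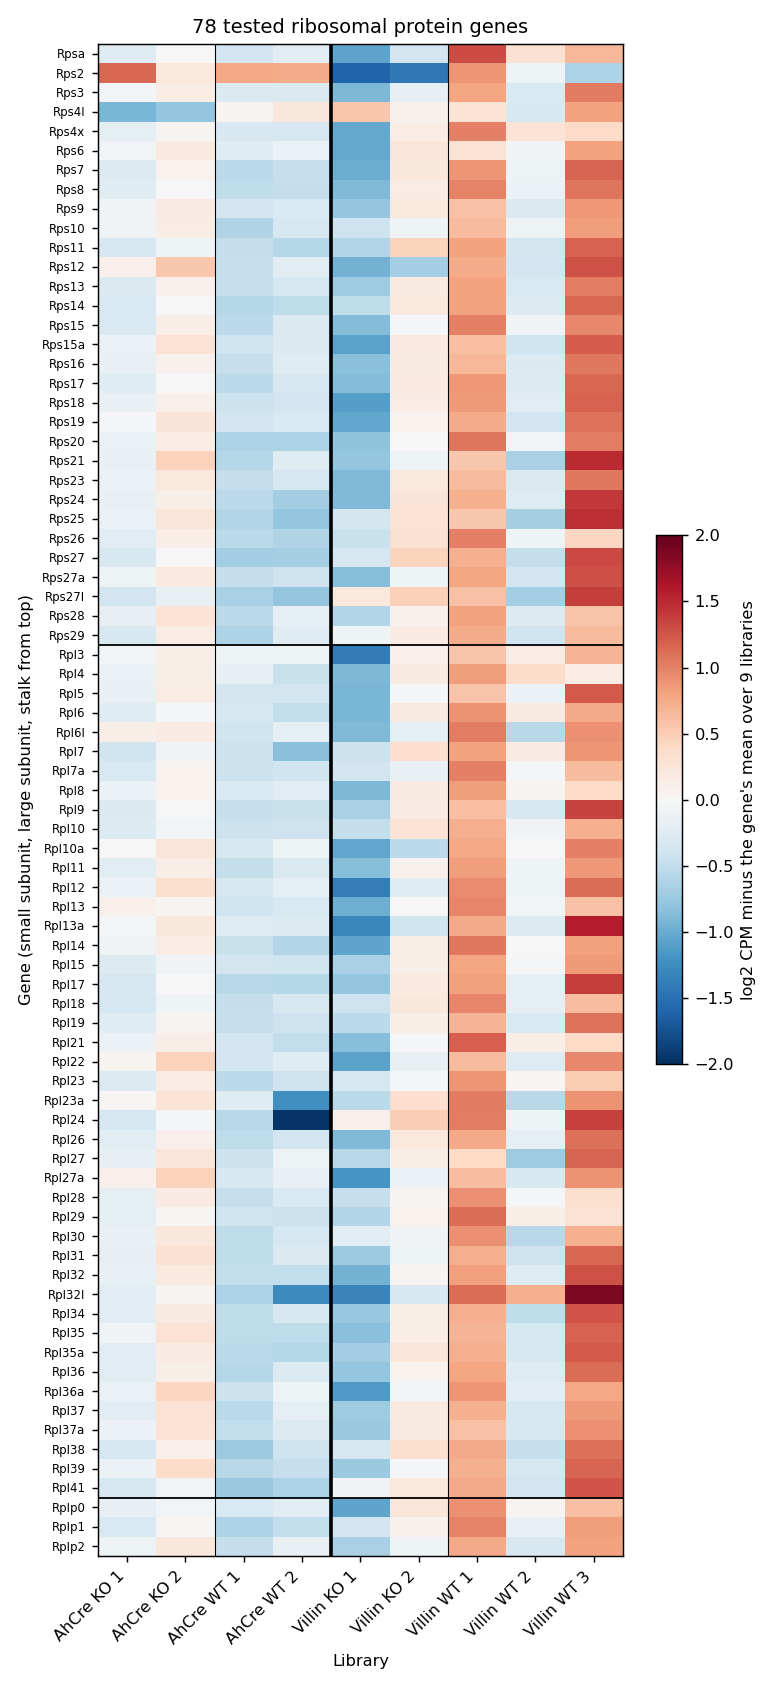
Each row is 1 of 78 of the tested members and each column a library; colour gives log2 CPM minus the gene's own mean over the 9 libraries, red above and blue below. Most rows share a pattern, with Villin KO 1 blue and Villin WT 1 and 3 red, and Rps2 and Rps4l depart from it.

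In AhCre crypts, nearly every ribosomal protein mRNA stood higher in KO by a small amount. The log2 fold change, KO over WT, was positive for 78 of the 80 tested members, with a median of 0.40 beside -0.005 over all 16250 genes tested. KO and WT libraries did not overlap, with KO higher, for 71 members, against 23.4% of all genes tested, and with KO lower for 1, Rps4l, against 25.1%. The 8 members that overlapped were Rpl18, Rpl27, Rpl36a, Rpl37, Rps15, Rps2, Rps29 and Rpsa. No single member was called, that is, had a Benjamini-Hochberg adjusted p under 0.05 in edgeR's quasi-likelihood model of all 9 libraries, in which 0.00615% of all genes were called. At an unadjusted p under 0.05, 0 members were higher, against 1.81% of all genes, and 1 was lower, against 1.72%. DESeq2 called 0 members, limma-voom called Rps4l lower, and a model of the AhCre libraries alone called 12 higher and Rps4l lower. For these other models the share of all genes called is not given here, so the 12 cannot be set against it. Without AhCre KO 2, the median fell to 0.23 on the log2 scale.

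The members of the small subunit had a median log2 fold change of 0.39 in AhCre, and those of the large subunit and stalk 0.40. Rps14, a small-subunit protein whose loss of 1 copy is tied to anaemia in humans, stood at 553 and 685 CPM in AhCre KO against 460 and 480 CPM in AhCre WT. Its log2 fold change was 0.40 ± 0.44 (SE). Rps19, another anaemia gene in humans, stood at 327 and 399 CPM in AhCre KO against 257 and 271 CPM in AhCre WT. The KO libraries lay above the WT libraries for both, by less than the error of the fit.

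Rpl22, a large-subunit protein with a paralogue, Rpl22l1, stood at 243 and 322 CPM in AhCre KO against 179 and 198 CPM in AhCre WT, a log2 fold change of 0.58 ± 0.43 (SE). Rps12, in the small subunit, stood at 187 and 252 CPM in AhCre KO against 127 and 151 CPM in AhCre WT, and Rps25, also in the small subunit, at 164 and 211 CPM in AhCre KO against 119 and 104 CPM in AhCre WT. Their log2 fold changes were 0.66 ± 0.45 and 0.75 ± 0.53 (SE). These 3 were among the 12 called in the model of the AhCre libraries alone and had an adjusted p of 1.0 in the model of all 9 libraries. The highest value, 0.90 ± 0.55 (SE), belonged to Rpl24, at 7.03 and 8.85 CPM in AhCre KO against 6.13 and 2.31 CPM in AhCre WT, and so rests largely on 1 low WT library.

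The stalk proteins recruit the translation factors that hydrolyse GTP. Rplp0, the base of the stalk, stood at 932 and 1010 CPM in AhCre KO against 843 and 898 CPM in AhCre WT, a log2 fold change of 0.16 ± 0.44 (SE). Rplp1 stood at 273 and 345 CPM in AhCre KO against 221 and 239 CPM in AhCre WT, and Rplp2 at 240 and 302 CPM in AhCre KO against 185 and 232 CPM in AhCre WT. All 3 had higher values in both KO libraries than in either WT library.

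Rps4l, the row that went the other way, is a transcribed processed pseudogene at chr6:148354656-148355598 (plus strand, GRCm38, GENCODE M21), with 14.9% of its 50-base stretches in 1 other gene. It stood at 44.2 and 48.3 CPM in AhCre KO against 86.5 and 96.5 CPM in AhCre WT, a log2 fold change of -0.98 ± 0.38 (SE, adjusted p = 1.0 by edgeR). Both KO libraries were below both WT libraries, and the adjusted p was 0.00504 by limma-voom and 0.00107 in the model of the AhCre libraries alone. In Villin the groups overlapped, at 122 and 88.2 CPM in KO against 100 and 145 CPM in WT 1 and 3 and 66.1 CPM in WT 2. The difference of its KO effects between drivers was -1.0 ± 0.51 (SE, adjusted p = 0.350).

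In Villin crypts, ribosomal protein mRNAs stood lower in KO. The log2 fold change was negative for 79 of the 80 tested members and for all 77 protein-coding ones, with a median of -0.88 beside -0.18 over all genes tested. edgeR called 4 of the 80 members lower, 2 in each subunit, a count near the 2.88% of all genes that were called lower. At an unadjusted p under 0.05, 37 were lower, against 15.4% of all genes. KO and WT libraries did not overlap, with KO lower, for 14 members, against 19.8% of all genes, a share of members near the background. The counts rest on single libraries: 0 were called when Villin KO 1, Villin WT 1 or any 1 of the 4 AhCre libraries was left out, 2 when Villin WT 3 was, 9 when Villin WT 2 was and 10 when Villin KO 2 was. The median was -0.49 with Villin KO 1 left out, -1.43 with Villin KO 2 left out and -1.01 with Villin WT 2 left out, and limma-voom and a model of the Villin libraries alone called 0.

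Of the 4 called, 3 are protein coding. Rpsa, a small-subunit protein also described as the laminin receptor, lies at chr9:120127689-120132369 (plus strand) and stood at 136 and 220 CPM in Villin KO against 694, 348 and 448 CPM in Villin WT. Both KO libraries were below all 3 WT libraries, with a log2 fold change of -1.48 ± 0.37 (SE, adjusted p = 0.0398). Rps2, a small-subunit protein near the path by which mRNA enters, lies at chr17:24718116-24721929 (plus strand), where its exons overlap Snora64 and Snhg9. It stood at 44.0 and 49.4 CPM in Villin KO against 245, 124 and 87.3 CPM in Villin WT, with a log2 fold change of -1.70 ± 0.45 (SE, adjusted p = 0.0448). The WT libraries of Rps2 were themselves spread, and 71 other genes share stretches with it. Rpl10a, a large-subunit protein, lies at chr17:28328471-28331033 (plus strand) and stood at 69.7 and 100 CPM in Villin KO against 245, 143 and 290 CPM in Villin WT. Its log2 fold change was -1.41 ± 0.36 (SE, adjusted p = 0.0415). Without Villin KO 1, edgeR called none of the 3, at -1.16 (adjusted p = 0.200) for Rpsa and -1.61 (adjusted p = 0.181) for Rps2, and with an adjusted p of 0.193 for Rpl10a. Without Villin WT 2, it called Rpsa, at -1.57, and Rpl10a, at -1.54, but not Rps2, at -1.73 (adjusted p = 0.0691). At least 50% of the 50-base stretches of each of the 3 occur in other genes, and exons of each overlap another gene. No protein-coding member with little shared sequence was therefore called. The median log2 fold change in Villin KO was nevertheless similar, at -0.83 over 27 tested protein-coding members that share under 50% and -0.88 over 50 that share more.

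The fourth, Rpl32l, is the processed pseudogene at chr10:20208490-20208888 (plus strand), with 499 counts in all. It stood at 2.25 and 4.47 CPM in Villin KO against 12.2, 9.11 and 20.4 CPM in Villin WT, a log2 fold change of -2.02 ± 0.51 (SE, adjusted p = 0.0408). The groups did not overlap. The value was -1.61 (adjusted p = 0.171) without Villin KO 1 and -2.14 (adjusted p = 0.0469) without Villin WT 2. Since 35.4% of its 50-base stretches occur in 9 other genes, reads of other ribosomal protein mRNAs could be among its counts, and their part was not tested. In AhCre it stood at 4.85 and 5.81 CPM in KO against 3.62 and 2.31 CPM in WT.

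Other members lay just outside the threshold. Rpl13a, a large-subunit protein at chr7:45125558-45128761 (minus strand), stood at 25.6 and 48.0 CPM in Villin KO against 108, 52.7 and 189 CPM in Villin WT. Its log2 fold change was -1.66 ± 0.48 (SE, adjusted p = 0.059). Rps12 stood at 90.8 and 109 CPM in Villin KO against 290, 134 and 419 CPM in Villin WT, a log2 fold change of -1.49 ± 0.43 (SE, adjusted p = 0.059). Rpl12, part of the base of the stalk, stood at 61.1 and 134 CPM in Villin KO against 305, 148 and 343 CPM in Villin WT, a log2 fold change of -1.44 ± 0.43 (SE). All 3 were lower in both KO libraries than in every WT library, as were 19.8% of all genes tested. DESeq2 called 7 members, these 3 among them. Without Villin KO 1 the log2 fold changes of Rpl13a, Rps12 and Rpl12 were -1.26, -1.35 and -0.97. Without Villin WT 2 they were -1.89, -1.72 and -1.62, and edgeR called all 3. For DESeq2 and for the fit without Villin WT 2, the share of all genes called is not given here.

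For most members Villin KO 2 and Villin WT 2 lay close to each other. Rps6, the small-subunit protein that S6 kinase phosphorylates, stood at 110 and 265 CPM in Villin KO against 272, 212 and 389 CPM in Villin WT. Rpl5 and Rpl11 bind 5S ribosomal RNA and can hold back MDM2, the ubiquitin ligase of p53. Rpl5 stood at 141 and 259 CPM in Villin KO against 395, 246 and 625 CPM in Villin WT, and Rpl11 at 135 and 259 CPM in Villin KO against 438, 230 and 448 CPM in Villin WT. Rplp0 stood at 504 and 1230 CPM in Villin KO against 1960, 1080 and 1590 CPM in Villin WT, a log2 fold change of -0.83 ± 0.41 (SE). In each of these the groups overlapped, with Villin KO 2 above Villin WT 2. The value of Rplp0 rests on single libraries: it was -0.31 without Villin KO 1, -0.92 without Villin WT 2, and -1.63 (adjusted p = 0.0423 by edgeR) without Villin KO 2.

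Rps14 stood at 483 and 787 CPM in Villin KO against 1190, 564 and 1520 CPM in Villin WT, a log2 fold change of -0.78 ± 0.42 (SE) that was -0.45 without Villin KO 1, -1.19 without Villin KO 2, -0.98 without Villin WT 2 and -0.46 without Villin WT 3. Rpl38, which in mouse embryos is needed for translation of some Hox mRNAs, stood at 165 and 262 CPM in Villin KO against 353, 152 and 447 CPM in Villin WT. Rpl10, among the last proteins to join the large subunit, stood at 304 and 508 CPM in Villin KO against 701, 401 and 692 CPM in Villin WT. Rps27a, made as a fusion to ubiquitin, stood at 142 and 242 CPM in Villin KO against 444, 197 and 627 CPM in Villin WT. Villin WT 2 lay below Villin KO 2 in all 4 genes.

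Rps27l, a paralogue of Rps27 that p53 is known to induce, at chr9:66946086-66949516 (plus strand), differed least among the protein-coding members in Villin. It stood at 577 and 695 CPM in Villin KO against 748, 312 and 1300 CPM in Villin WT, a log2 fold change of -0.31 ± 0.46 (SE, adjusted p = 0.711), and its sign turned without Villin WT 3, at 0.26. It was -0.16 without Villin KO 1 and -0.57 without Villin WT 2. In AhCre it stood at 382 and 451 CPM in KO against 317 and 289 CPM in WT, a log2 fold change of 0.46 ± 0.51 (SE). As a part of all ribosomal protein counts, it made up 1.78% and 1.72% in AhCre KO against 1.76% and 1.53% in AhCre WT. It made up 3.90% and 2.61% in Villin KO against 1.74%, 1.42% and 2.79% in Villin WT, where the groups overlapped. Relative to the set, its level varied with an SD of 0.482 over the libraries on the log2 scale, and only Rps2 (1.11), Rps4l (0.694), Rpl24 (0.686) and Rpl32l (0.640) varied more.

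Rps2 varied most relative to the set. It made up 1.37% and 0.593% of ribosomal protein counts in AhCre KO against 1.27% and 1.19% in AhCre WT, and 0.298% and 0.186% in Villin KO against 0.570%, 0.564% and 0.187% in Villin WT. Its part was therefore lowest in Villin KO 2 and Villin WT 3, 1 library of each genotype.

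**Figure D3:**
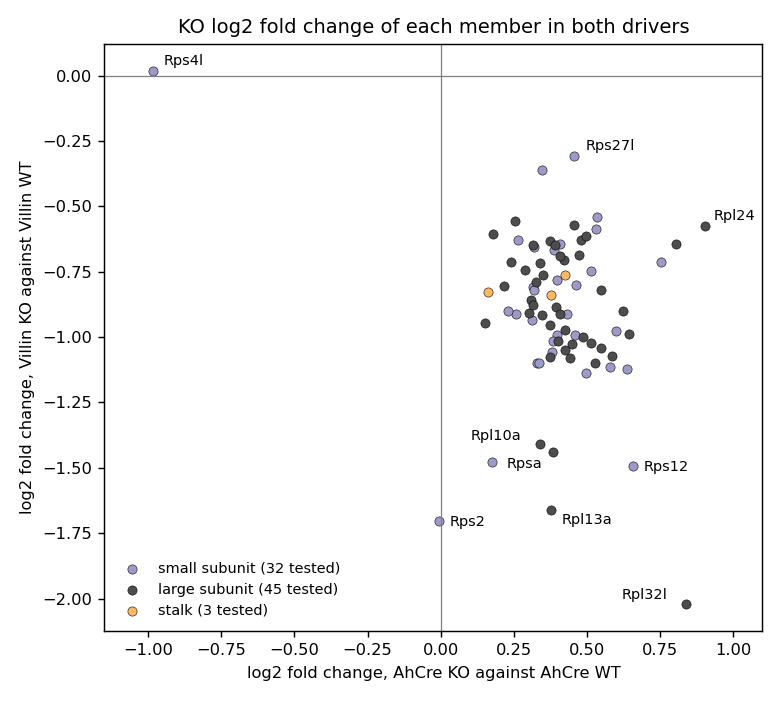
Log2 fold change of each of the 80 tested members, AhCre KO against AhCre WT (horizontal) and Villin KO against Villin WT (vertical), coloured by subunit. All but Rps4l and Rps2 lie to the right of 0 and all but Rps4l below 0.

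The KO effects in the drivers were then set against each other. The difference of the log2 fold changes, AhCre minus Villin, was positive for 79 of 80 members, with a median of 1.26 beside 0.18 over all genes tested. edgeR called 0 members, against 0.0738% of all genes, and 37 had a higher value at an unadjusted p under 0.05, against 9.55%. DESeq2 called 1, Rpl32l, and limma-voom 0. The largest difference among the protein-coding members was that of Rps12, 2.15 ± 0.62 (SE, adjusted p = 0.171), followed by Rpl13a at 2.04 ± 0.68 (SE, adjusted p = 0.206). The median was 0.95 without Villin KO 1 and 1.44 without Villin WT 2. For 12 of the 80 members, against 4.65% of all genes tested, the KO libraries lay above all WT libraries in AhCre and below all of them in Villin, among them Rpl10a, Rpl12, Rpl13a, Rpl21, Rpl23, Rpl29, Rpl3, Rpl32l, Rpl7a, Rps12 and Rps4x. Over the 80 members the log2 fold changes in AhCre and in Villin had a Spearman correlation of -0.11 and a Pearson correlation of -0.26, as a description of genes that share libraries.

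Averaged over both drivers, the KO effect was negative for 76 of 80 members and positive for 4, with a median log2 fold change of -0.25 and an interquartile range of -0.31 to -0.15, beside a median of -0.10 over all genes tested. edgeR, DESeq2 and limma-voom each called 0 members, against 1.17% of all genes by edgeR. At an unadjusted p under 0.05, Rps2 and Rpsa were lower, against 8.49% of all genes, and 0 were higher. The median was -0.05 with Villin KO 1 left out, where 54 members were negative, -0.51 with Villin KO 2 left out and -0.33 with Villin WT 2 left out.

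Between the WT groups, ribosomal protein mRNAs stood lower in AhCre. AhCre WT had 2.26% and 2.37% of its counts on the members against 3.66%, 2.45% and 3.75% in Villin WT, with no overlap. The log2 fold change, AhCre WT against Villin WT, was negative for 79 of 80 members, with a median of -1.02 beside -0.07 over all genes tested. The exception was Rps2, at 229 and 224 CPM in AhCre WT against 245, 124 and 87.3 CPM in Villin WT. edgeR called 2 of the 80 lower, a count near the 3.53% of all genes that were called lower. At an unadjusted p under 0.05, 60 were lower, against 16.0% of all genes. AhCre WT lay below every Villin WT library for 54 members, against 23.8% of all genes. Without Villin WT 2 the median was -1.25. Other lists stood lower in AhCre WT too. Over 11 mitochondrially encoded genes tested the median was -1.12, and edgeR called 4 lower, against 3.53% of all genes. Over 77 mitochondrial ribosomal protein genes the median was -0.68, with 0 called. Driver, inducing agent as the titles give it, and library set change together here and cannot be told apart.

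Cell markers moved in this comparison too. Of 24 absorptive enterocyte genes, 7 were called lower in AhCre WT, against 3.53% of all genes, with a median log2 fold change of -0.88. All 18 crypt base stem cell genes had a positive value, with a median of 0.60, and 3 were called higher, against 4.04% of all genes. The median was 0.60 over 30 proliferation genes, with 0 called by edgeR. An unadjusted p under 0.05 was found for 3, all higher, against 2154 of the 16250 genes tested that were higher at that level. The median was 1.5 over 15 stromal genes tested, of which 3 were called higher, against the same 4.04%. Enterocyte genes thus stood lower beside lower ribosomal protein mRNA here, and higher beside it in Villin KO, and the part of these markers was not tested.

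The 2 called were Rpl24, at 6.13 and 2.31 CPM in AhCre WT against 18.3, 8.47 and 23.3 CPM in Villin WT, and Rpl32l, at 3.62 and 2.31 CPM in AhCre WT against 12.2, 9.11 and 20.4 CPM in Villin WT. Their log2 fold changes were -1.97 ± 0.53 (SE, adjusted p = 0.0431) for Rpl24 and -2.22 ± 0.50 (SE, adjusted p = 0.0272) for Rpl32l. Rps27l had a log2 fold change of -1.38 ± 0.48 (SE, adjusted p = 0.090). The count of calls depended on single libraries: 61 were called when Villin WT 2 was left out, 6 when either Villin KO library was, and 0 when any 1 of the AhCre libraries, Villin WT 1 or Villin WT 3 was. DESeq2 called 25 and limma-voom with sample weights 68. The share of all genes called in these other fits is not given here, so their counts of members cannot be set against it.

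Transcript length moved with the WT comparison. Over genes tested outside the set, the Spearman correlation of log2 fold change with exon length was 0.37 for AhCre WT against Villin WT, -0.10 for the AhCre KO effect and 0.06 for the Villin KO effect. The 347 protein-coding genes outside the set with under 1000 exonic bases had a median log2 fold change of -0.94 in the WT comparison, 0.15 for AhCre KO and -0.25 for Villin KO. By the same measure only 13 of the 80 tested members are this short, although the representative transcript of 63 has under 1000 bases. These 13 had medians of -1.16, 0.44 and -0.76, and all 80 members -1.02, 0.40 and -0.88, in the same order. The part of length in these results was not tested.

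Ribosomal protein genes outside the pattern were measured as a second set of the same machinery. Of 9 listed, 8 were tested, and Rpl10l had no counts in any library. In AhCre KO the log2 fold change was positive for 8 of 8, with a median of 0.39. In Villin KO it was negative for 6 of 8, with a median of -0.59, and 0 were called. At an unadjusted p under 0.05, 2 were lower, against 15.4% of all genes. Rack1, a scaffold protein of the small subunit, stood at 196 and 344 CPM in Villin KO against 763, 431 and 677 CPM in Villin WT, with no overlap. Fau, whose product is cleaved to ribosomal protein S30, stood at 780 and 795 CPM in Villin KO against 887, 406 and 1020 CPM in Villin WT, with overlap.

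Between the WT groups, 2 of these 8 were called lower, against 3.53% of all genes. Fau stood at 284 and 290 CPM in AhCre WT against 887, 406 and 1020 CPM in Villin WT, a log2 fold change of -1.43 ± 0.39 (SE, adjusted p = 0.0471). Rps27rt stood at 3.75 and 1.34 CPM in AhCre WT against 15.6, 7.95 and 33.9 CPM in Villin WT, a log2 fold change of -2.89 ± 0.65 (SE, adjusted p = 0.027). The 291 pseudogene rows took 0.0388% and 0.0449% of counts in AhCre KO against 0.0290% and 0.0213% in AhCre WT, and 0.0112% and 0.0246% in Villin KO against 0.0510%, 0.0292% and 0.0548% in Villin WT. These shares did not overlap between genotypes in either driver, as those of the members did not. After TMM scaling the pseudogene rows overlapped in Villin, as the members did, at 164 and 317 CPM in KO against 600, 263 and 681 CPM in WT.

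Genes that work with the ribosome were compared with its proteins. Of 11 host genes of small nucleolar RNAs, which guide ribosomal RNA modification and are in several cases TOP RNAs themselves, 3 were called lower in Villin KO, against 2.88% of all genes, with a list median of -1.39. Gas5 stood at 50 and 96.3 CPM in Villin KO against 208, 144 and 248 CPM in Villin WT, a log2 fold change of -1.45 ± 0.37 (SE, adjusted p = 0.0412). Snhg12 had a log2 fold change of -2.23 ± 0.48 (SE, adjusted p = 0.0234) and Snhg5 of -1.61 ± 0.37 (SE, adjusted p = 0.0291). Each of these calls held in 7 of 11 alternatives in processing. Without Villin KO 1 none of the 3 was called by edgeR, at -1.04 (adjusted p = 0.201) for Gas5, -1.96 (adjusted p = 0.110) for Snhg12 and -1.44 (adjusted p = 0.122) for Snhg5, and without Villin WT 2 all 3 were, at -1.53, -2.23 and -1.68. In AhCre KO the list median was 0.12.

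Of 24 translation factors and other TOP mRNAs, 1 was called lower in Villin KO, the nucleolar chaperone Npm1, against 2.88% of all genes, and the list median was -0.51. Of 40 ribosome biogenesis genes, 2 were called lower, Fbl, the methyltransferase of small nucleolar ribonucleoproteins, and Utp20, a processome factor, with a list median of -0.73. Both counts of calls are near that share of all genes. At an unadjusted p under 0.05, 8 of the 24 and 12 of the 40 were lower, against 15.4% of all genes. At that level 0 and 1 were higher, against 1743 of the 16250 genes tested. The 77 tested mitochondrial ribosomal protein genes, which serve another ribosome, had a median of -0.37, and 0 were called in Villin by edgeR, with 5 lower at an unadjusted p under 0.05, against 15.4% of all genes. In AhCre KO the medians were 0.18, 0.08 and 0.01 for the same 3 lists, beside 0.40 for the members.

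**Figure D4:**
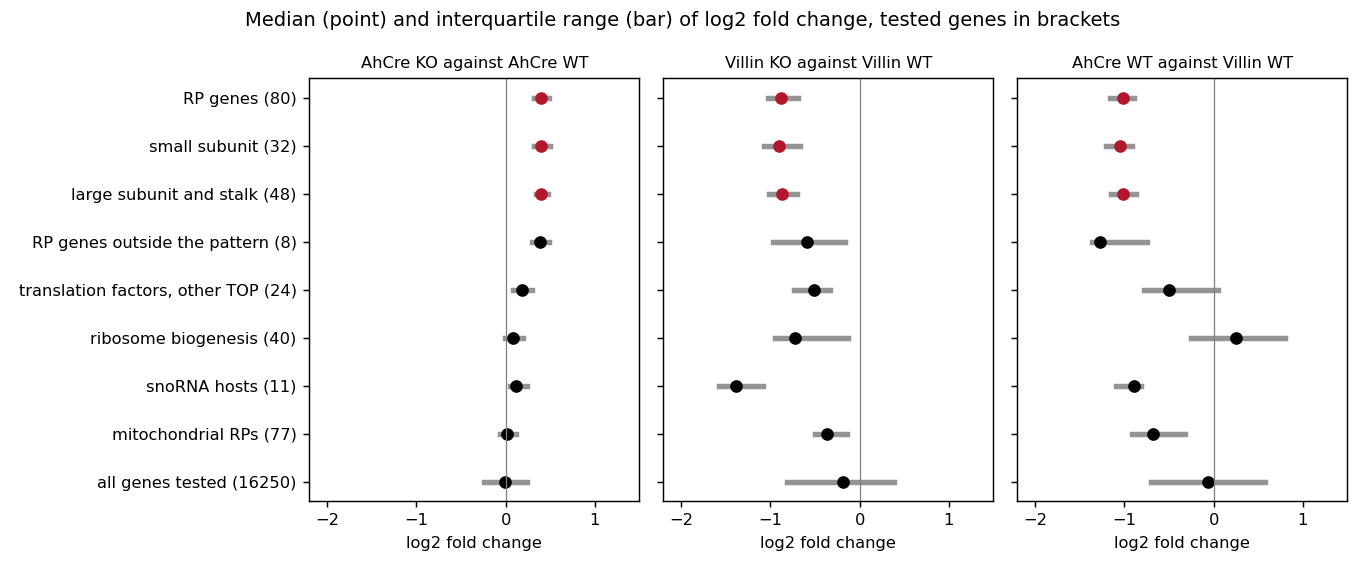
Median (point) and interquartile range (bar) of the log2 fold change over the tested genes of each list, in 3 comparisons; the ribosomal protein genes are in red. The members sit at 0.40 in AhCre KO, -0.88 in Villin KO and -1.02 in AhCre WT against Villin WT, and all genes tested near 0.

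Markers of cell state moved with the Villin result. The summed level of 30 proliferation genes was 489 and 1570 CPM in Villin KO against 1790, 2190 and 2000 CPM in Villin WT, and 2 of the 30, Mki67 and Cenpf, were called lower, against 2.88% of all genes. The summed level of 18 crypt base stem cell genes was 742 and 1850 CPM in Villin KO against 1380, 2990 and 2620 CPM in Villin WT, and 4 of 18, Lgr5, Axin2, Slc12a2 and Lrig1, were called lower, against the same 2.88%. The summed level of 24 absorptive enterocyte genes was 102000 and 71600 CPM in Villin KO against 49400, 33100 and 51000 CPM in Villin WT, and 12 of 24 were called higher, against 3.33% of all genes. No marker of these lists was at 0 in all libraries. Villin KO 1, with the lowest ribosomal protein level, had the lowest proliferation and stem cell sums and the highest enterocyte sum. The other Villin libraries did not follow that order. Villin WT 2, with the lowest ribosomal protein sum of the Villin WT libraries at 22000 CPM, had their highest proliferation and stem cell sums and their lowest enterocyte sum. Villin WT 1, at 43000 CPM of ribosomal protein mRNA, had a stem cell sum below that of Villin KO 2.

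Other marker lists differed between the genotypes as well. Of 20 tuft cell genes, 19 were called higher in Villin KO, against 3.33% of all genes, with a median log2 fold change of 4.15. In AhCre KO all 20 were higher at an unadjusted p under 0.05, against 1.81% of all genes, with a median of 2.50. The tuft cell sum was 6020 and 988 CPM in Villin KO against 210, 153 and 313 CPM in Villin WT, and 1560 and 1530 CPM in AhCre KO against 284 and 282 CPM in AhCre WT. Of 15 dissociation and heat-shock stress genes, 3 were called higher in Villin KO, against 3.33% of all genes, with a median of 0.80, and their sum was 2590 and 2090 CPM in Villin KO against 1180, 1370 and 1500 CPM in Villin WT.

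Of 18 myeloid and mast cell genes, 2 were called higher in Villin KO, against 3.33% of all genes, with a median of 1.43. The sum over the 18 was 260 and 992 CPM in Villin KO against 169, 54.0 and 292 CPM in Villin WT. Of 15 stromal genes tested, 2 were called higher in Villin KO, against the same 3.33%, with a median of 1.26. In AhCre KO the median was -0.92, with 0 called by edgeR. There 1 was lower at an unadjusted p under 0.05, against 1.72% of all genes. The stromal sum was 237 and 269 CPM in Villin KO against 240, 39.6 and 37.6 CPM in Villin WT. Tuft cell and stress sums did not overlap between Villin KO and Villin WT, and myeloid and stromal sums did. The part of cell composition and stress in the ribosomal protein result was not tested.

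**Figure D5:**
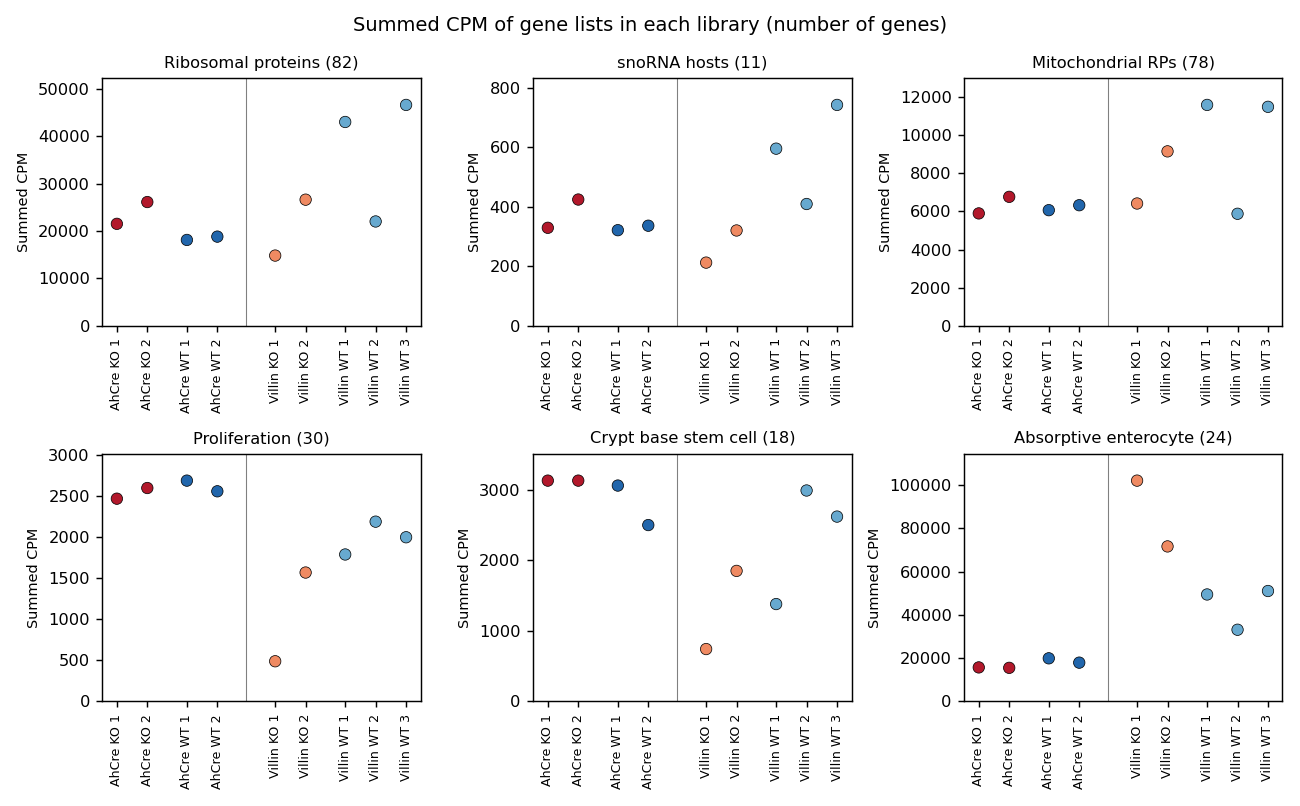
Summed CPM of 6 gene lists in each library (points; red and orange are KO, blue is WT; each panel starts at 0). In Villin KO 1 the ribosomal protein sum is 14788 CPM and the proliferation sum 489 CPM, each the lowest of the 9 libraries, and the enterocyte sum is the highest at 102000 CPM.

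In AhCre these lists changed less. The proliferation sum was 2470 and 2600 CPM in AhCre KO against 2690 and 2560 CPM in AhCre WT, which overlapped. The stem cell sum was 3130 and 3130 CPM in AhCre KO against 3060 and 2500 CPM in AhCre WT, and the enterocyte sum was 15700 and 15500 CPM in AhCre KO against 19900 and 17900 CPM in AhCre WT. The sum of 15 Paneth cell genes was 16700 and 18000 CPM in AhCre KO against 9980 and 8880 CPM in AhCre WT. Paneth and stem cell sums were higher and the enterocyte sum was lower in both AhCre KO libraries, beside the higher ribosomal protein level, and their part in it was not tested.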

How the data were processed

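RNA from isolated crypts (2 ng per library) was sequenced with Smart-seq2, per the labels' protocols, a method that copies polyadenylated RNA without marking the strand. Reads of a gene and of an overlapping partner are thus not separable by strand. The authors deposited raw counts per gene for 9 libraries. The tools named in the submitters' processing notes are STAR 2.7, featureCounts and DESeq2 1.20, and the builds mm10 and GRCm38. Not given in the sources used here are the annotation, the strand setting and the treatment of reads with several matches. Every row name (100%) was among the gene names of GENCODE M21, from which positions, gene types and lengths were taken; the transcript of best APPRIS rank, then the shortest, gave the length.

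Groups followed driver and genotype in the titles. edgeR 4.0.16 in R 4.3.3 was fitted to the deposited counts of all 9 libraries, with 1 mean per group, filterByExpr (16250 rows left), TMM scaling, the quasi-likelihood test and Benjamini-Hochberg adjustment over all rows tested. Members were called at an adjusted p under 0.05. Alternatives were the DESeq2 1.42.0 Wald test and size factors, limma 3.58.1 (voom with sample weights), library totals, TMM without the members or on longer genes, no or another low-count filter, each driver fitted alone, a replicate block, each library left out, other member sets and other denominators. In single libraries 3 counts, the limit that a count of 0 allows, equal between 0.194 and 0.615 CPM, which covers counting error only. The procedure was tested on simulated data, in which some genes were given a log2 change larger than any median of the members. Of these genes it called 29.5% for AhCre minus Villin and 79.5% to 97% in the other comparisons. How often the procedure calls changes as small as the members' medians was not tested. A count of 0 called members therefore says little in any comparison, and least in AhCre minus Villin.

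The members, lists and named genes were chosen with earlier results of these data known. Named were 18 members fixed by role, 4 paralogues, in each comparison the 4 highest and 4 lowest log2 fold changes among members with at least 10 CPM on average and up to 5 called members, and the 5 highest and 5 lowest levels per kilobase. Rps3 as an example of little shared sequence was chosen after its values were seen, as was Rack1. Not every member that this rule picks is reported here by name.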

Additional observations from a re-analysis of the deposited data

Results flagged for a closer look

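The share of all counts on ribosomal protein genes was picked out because every KO library lay above every WT library in AhCre and below every WT library in Villin. The difference between the drivers was not tested for any of these shares. For all 82 members the KO minus WT difference of the means was 0.615 percentage points in AhCre and -1.75 in Villin, so the KO effects were 2.36 points apart. For the small subunit they were 1.04 points apart (0.271 in AhCre and -0.768 in Villin), for the large subunit 1.18 points apart (0.310 in AhCre and -0.866 in Villin), and for the stalk 0.141 points apart (0.0275 in AhCre and -0.113 in Villin). The classes share libraries and are not independent of each other.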

How the results depend on the processing

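The direction of the members' median held in every comparison and under every alternative tried, and the counts of called members did not. The median log2 fold change ran from 0.37 to 0.43 in AhCre KO, from -1.13 to -0.62 in Villin KO, from 1.05 to 1.48 for AhCre minus Villin, from -0.39 to -0.11 for the mean of both drivers and from -1.11 to -0.51 for AhCre WT against Villin WT, the last value with library totals. Library totals in place of TMM moved the median of all genes by -0.33 in Villin KO and 0.45 between the WT groups. Relative to all genes, the members then lay at -0.61 in Villin KO, against -0.70 with TMM, and at -0.89 between the WT groups, against -0.95 with TMM. In AhCre KO they lay at 0.40 with both scalings.

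For Villin KO, 4 members were called lower; the count was 18 with library totals, 7 with no filter on low counts and 7 with DESeq2, and 0 with limma-voom and with each driver fitted alone. Counted over members that share under 50% of their 50-base stretches, or over those with no exon overlap, it was 1 in each case, the pseudogene Rpl32l, and 0 protein-coding members, because fewer members were counted. For AhCre KO, each driver fitted alone gave 12 higher and 1 lower, and limma-voom 1 lower. For AhCre minus Villin, no filter gave 3 higher and DESeq2 1. For AhCre WT against Villin WT, 2 were called lower; the count was 1 with library totals, 20 with no filter, 25 with DESeq2, 68 with limma-voom, 4 with the genes outside the pattern added, and 1 for members with little shared sequence and 1 for those with no exon overlap. Where no reason is given, the cause was not tested. These counts stand without the share of all genes called under the same alternative, and so do those with a library left out. AhCre WT had a share of 2.42% of the counts of protein-coding genes, against 2.32% of all counts, because the total is smaller.

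Leaving out 1 library at a time gave 0 to 10 members lower in Villin KO, 0 to 61 lower between the WT groups and 0 to 1 higher for AhCre minus Villin. The median ran from 0.23 to 0.55 in AhCre KO, -1.43 to -0.49 in Villin KO, 0.95 to 1.83 for AhCre minus Villin, -0.51 to -0.05 for the mean of both drivers, and -1.25 to -0.80 between the WT groups. Rps27l in Villin KO, at -0.31, ran from -0.57 to 0.26, the sign turning with Villin WT 3 left out.

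Same-numbered AhCre libraries had deviations from their group means correlated at -0.107 and same-numbered Villin libraries at 0.061 and -0.216. In a group of 2 libraries these deviations mirror each other, so the values cannot show whether the numbers pair the samples. With a replicate block, 0 members were called lower in Villin KO, and Rps27l was at 0.39 there; with the AhCre numbers crossed in that block, again 0 members were called lower and Rps27l was at 0.39. In AhCre KO, 0 members were called with the block and 0 with it crossed. The crossed block, the splits by shared sequence and exon overlap, and a TMM scaling on longer genes were chosen after seeing the data.

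With 2 or 3 libraries per group, precision is limited. The standard errors of members in AhCre KO were about as large as their log2 fold changes. They come from the model of all 9 libraries, which estimates spread over all groups together. Chi-square per degree of freedom between replicates, a measure of that spread, was 10.8 for AhCre KO and 6.48 for AhCre WT. The pair of Villin KO libraries had 57.7, and pairs of Villin WT libraries ranged from 43.3 up to 63.6. How much the Villin spread adds to the AhCre errors was not tested.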
